A study of Mus musculus with 172 samples.

Results

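The genes described here were the simple-epithelium keratins Krt7, Krt8, Krt18 and Krt19, the desmosome genes Dsp, Jup, Pkp2, Dsg2 and Dsc2, and Perp. The 10 genes were chosen by symbol from the 49671 genes of the count files, and all 10 were found. Their levels were compared between embryos and between single cells of the inner cell mass (ICM) of mouse blastocysts with and without OCT4, the product of Pou5f1. In the mouse genome GRCm38, Krt7 lies on chromosome 15 (101411043 to 101430313), as do Krt8 and Krt18. Krt19 and Jup lie on chromosome 11, Dsp on 13 (38151294 to 38198577) and Pkp2 on 16 (16213318 to 16272712). Perp lies on 10 (18845020 to 18857073), and Dsg2 (20558074 to 20604521) and Dsc2 (20030633 to 20059554) lie on 18. An antisense gene overlapping Dsg2 held 21 counts beside 11478 of Dsg2, and the pseudogene Krt8-ps held 834 counts. Multimapped reads were left out, so how far the pseudogene makes the level of Krt8 uncertain is not known.

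Keratins form filaments from pairs of a type II chain (Krt7, Krt8) and a type I chain (Krt18, Krt19), and Krt8 with Krt18 is the first pair made by the embryo, in the trophectoderm (TE), the outer epithelium of the blastocyst. Desmosomes anchor these filaments at cell contacts. The cadherins Dsg2 and Dsc2 span the membrane, the armadillo proteins Jup (plakoglobin) and Pkp2 bind their tails, Dsp (desmoplakin) ties the plaque to keratin, and Perp is a membrane protein of the same junction that is also a p53 target.

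Blastocysts came from mating Oct4+/- mice of mixed genetic background with each other, and each embryo was genotyped from its own TE, which immunosurgery had removed. The E3.5 embryos gave 58 cells from 7 WT/HET embryos (5 WT, 2 HET) and 29 cells from 4 Oct4-null (MUT) embryos. The E4.5 embryos gave 66 cells from 6 WT/HET embryos (2 WT, 4 HET), which the authors had assigned to the epiblast (EPI, 37 cells) or the primitive endoderm (PrE, 29 cells), and 19 cells from 2 MUT embryos. The null allele was carried from fertilization, and all mothers were Oct4+/-. Stage and sequencing plate cannot be told apart, as each stage was run on a Smart-seq2 plate of its own.

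Each cell had between 363819 and 4644070 counts in genes, with group medians from 1318327 to 1772045. The counts of all cells from an embryo were added up, with EPI and PrE kept apart at E4.5, which gave 25 sums. Levels are CPM (counts scaled to an equal total per sum) on one scale for all sums, each an embryo's value and n the number of embryos. In such a sum, fewer cells of a type and less RNA per cell cannot be told apart. Pou5f1 was at 199 to 435 CPM in E3.5 WT/HET embryos, at 2.73 to 5.93 CPM in E3.5 MUT embryos and at 0 counts in both E4.5 MUT embryos.

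The summed level of the TE markers moved with genotype and stage. The 14 markers of the TE list summed to 252 to 615 CPM in E3.5 WT/HET, 1002 to 1930 CPM in E3.5 MUT, 169 to 366 CPM in EPI, 896 to 1610.0 CPM in PrE, and 6385 and 7123 CPM in the 2 E4.5 MUT embryos. All 14 had counts in E4.5 MUT, Cdx2 and Elf5 were at 0 in EPI, Elf5 was at 0 in PrE and Gata2 was at 0 in E3.5 MUT. Of these sums, Fabp3 alone gave 174 to 775 CPM in E3.5 MUT and 10.0 to 89.4 CPM in E3.5 WT/HET. EPI markers (9 genes) summed to 2267 to 3943 CPM in EPI and 225 to 397 CPM in PrE, and PrE markers (13 genes) to 5628 to 12405 CPM in PrE and 287 to 561 CPM in EPI, as labelled. The part of any of these cell types in the results below was not tested.

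The sequence before the transcription start is shown for the keratin pair and for Jup. In both E4.5 MUT embryos the pair lay above every EPI and PrE sum, while Jup overlapped these sums. Krt8 (minus strand) and Krt18 (plus strand) are neighbours on chromosome 15 in GRCm38, where Krt8 spans 101996698 to 102004482 and Krt18 spans 102028180 to 102032027. Jup lies on chromosome 11 from 100368958 to 100397763 on the minus strand, and Krt19 lies on the same chromosome from 100140810 to 100148665. The RefSeq promoter windows of GRCm38.p6 were cut where either annotation begins a transcript, and capitals mark the words that were found.
Krt8, chr15:102004483-102004592, minus strand: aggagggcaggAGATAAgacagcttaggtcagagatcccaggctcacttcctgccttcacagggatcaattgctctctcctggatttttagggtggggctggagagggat
Krt18, chr15:102027966-102028179, plus strand: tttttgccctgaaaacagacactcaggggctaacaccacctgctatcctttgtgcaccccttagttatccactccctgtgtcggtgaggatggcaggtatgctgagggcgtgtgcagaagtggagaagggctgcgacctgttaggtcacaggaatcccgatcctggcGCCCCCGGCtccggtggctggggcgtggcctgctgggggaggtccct
Jup, chr11:100397791-100398040, minus strand: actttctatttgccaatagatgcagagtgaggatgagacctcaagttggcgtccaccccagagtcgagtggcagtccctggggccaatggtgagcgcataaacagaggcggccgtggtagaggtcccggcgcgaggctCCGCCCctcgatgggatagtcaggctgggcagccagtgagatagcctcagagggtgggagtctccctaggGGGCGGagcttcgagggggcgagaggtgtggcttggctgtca

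Both strands were searched for the octamer ATGCAAAT, the GATA word AGATAA, the TEAD word GGAATG, the AP-2 word GCCNNNGGC and the GC box GGGCGG. Krt8 held 1 GATA word, Krt18 held 1 AP-2 word and Jup held 2 GC boxes. Of 32851 RefSeq promoter windows of 300 bases, 11.2% held the GATA word, 16.6% the AP-2 word and 35.7% the GC box. The octamer and the TEAD word, present in 1.74% and 14.7% of windows, were in none of the 5 windows available for these genes (Krt7, Krt8, Krt18, Dsp and Jup). A match is a description of the letters and shows no binding.

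Krt8 and Krt18 were present in the ICM at E3.5 with and without OCT4, were lowest by median in the E4.5 EPI, and were higher in both E4.5 MUT embryos than in every sum of the other groups. PrE sums overlapped the E3.5 embryos in both genes. At E3.5, Krt8 ran from 71.7 to 431 CPM in WT/HET (median 179, n = 7) and was 201.6, 139.5, 351 and 92.3 CPM in the 4 MUT embryos. The ranges lay within each other, and the fitted difference was a log2 fold change of 0.01 (SE 0.45, edgeR adjusted p = 0.996). At E4.5, Krt8 was 1650.2 and 2331 CPM in the 2 MUT embryos, against 0 to 42.7 CPM in EPI (median 2.91, n = 6) and 7.13 to 408 CPM in PrE (median 79.4, n = 6). Both MUT embryos lay above every control sum of the stage. The log2 fold change was 7.49 against EPI (SE 1.54, edgeR adjusted p = 0.0247) and 3.90 against PrE (SE 0.96, edgeR adjusted p = 0.0569), so that Krt8 passed the threshold of 0.05 only against EPI.

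Krt18, the type I partner, was 7.996 to 173 CPM in E3.5 WT/HET (median 19.1) and 159.5, 47.4, 245 and 27.6 CPM in E3.5 MUT. All 4 MUT embryos lay above the WT/HET median, but the groups overlapped, with 1 WT/HET embryo above 3 of them, and the log2 fold change of 1.57 (SE 0.79) did not pass (edgeR adjusted p = 0.278). That embryo was HET embryo 15, and 73.3% of its Krt18 counts came from 1 of its 9 cells. This cell had 1753 CPM of Krt18 and 1679 CPM of Krt8, while the next cell of the embryo had 156 CPM of Krt18. Its TE markers summed to 3322 CPM, the highest of the 58 WT/HET cells (median 339 CPM). The MUT cell with the most Krt18, in embryo 17, likewise gave 66.1% of its embryo's Krt18 counts and had the highest TE marker sum of the 29 E3.5 MUT cells, 4041 CPM against a median of 1425. With each of the 11 embryos left out in turn, the log2 fold change was 0.95 to 2.66 and passed in 1 fit, the one without embryo 15 (2.66, edgeR adjusted p = 0.0190), while the lowest was that without embryo 17. The 5 WT embryos were at 7.996 to 24.8 CPM and the 2 HET embryos at 173 and 29.8 CPM. Of the 6 other settings tried, Krt18 passed in 1, the edgeR fit with WT embryos as the only controls. At E4.5 Krt18 was 1310.4 and 1912 CPM in MUT, 0.0598 to 40.5 CPM in EPI (median 11.8) and 0 to 72.2 CPM in PrE (median 39.1). The difference passed against EPI (log2 fold change 6.81, SE 1.07, edgeR adjusted p = 0.00697) and against PrE (5.43, SE 1.07, edgeR adjusted p = 0.0232).

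Krt19 and Krt7, which join Krt8 and Krt18 in many simple epithelia, were nearly absent at E3.5. Krt19 had 0 counts in the 7 WT/HET embryos and 1 count in the 4 MUT embryos, and Krt7 had 45 and 11 counts, below the filter for testing. At E4.5 Krt19 was 53.6 and 55.4 CPM in MUT, 0 to 13.7 CPM in EPI and 0 to 2.35 CPM in PrE. Krt7 was 11.47 and 10.1 CPM in MUT and had 0 counts in all EPI and PrE sums. Counted over whole groups with a floor of 3 counts, Krt7 was at least 225-fold higher than in EPI and at least 182-fold higher than in PrE. These bounds cover counting error only. Neither gene passed the test, with edgeR adjusted p of 0.280 and 0.0848 for Krt19 and of 0.0758 and 0.0848 for Krt7 against EPI and PrE.

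Per length of transcript, Krt18 and Krt8 had the highest levels of the 10 genes in E4.5 MUT, with 1121 ± 296 and 1017 ± 246 FPKM (counts scaled as CPM and divided by exon length in kilobases, mean ± SD, n = 2). Among the keratins, Krt19 was at 29.4 ± 0.685 FPKM and Krt7, the lowest of the 10, at 1.53 ± 0.134 FPKM. Perp was at 43.6 ± 27.9 FPKM and Pkp2 at 23.3 ± 0.994 FPKM, and the other junction genes had means from 6.69 to 16.4 FPKM. At E3.5 the pair was uneven in WT/HET, with 101.1 ± 59.9 FPKM of Krt8 and 28.5 ± 40.8 FPKM of Krt18 (n = 7). In E3.5 MUT the levels were 100.1 ± 57.4 and 83.4 ± 70.7 FPKM (n = 4). The ratio between them was not tested.

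**Figure D1:**
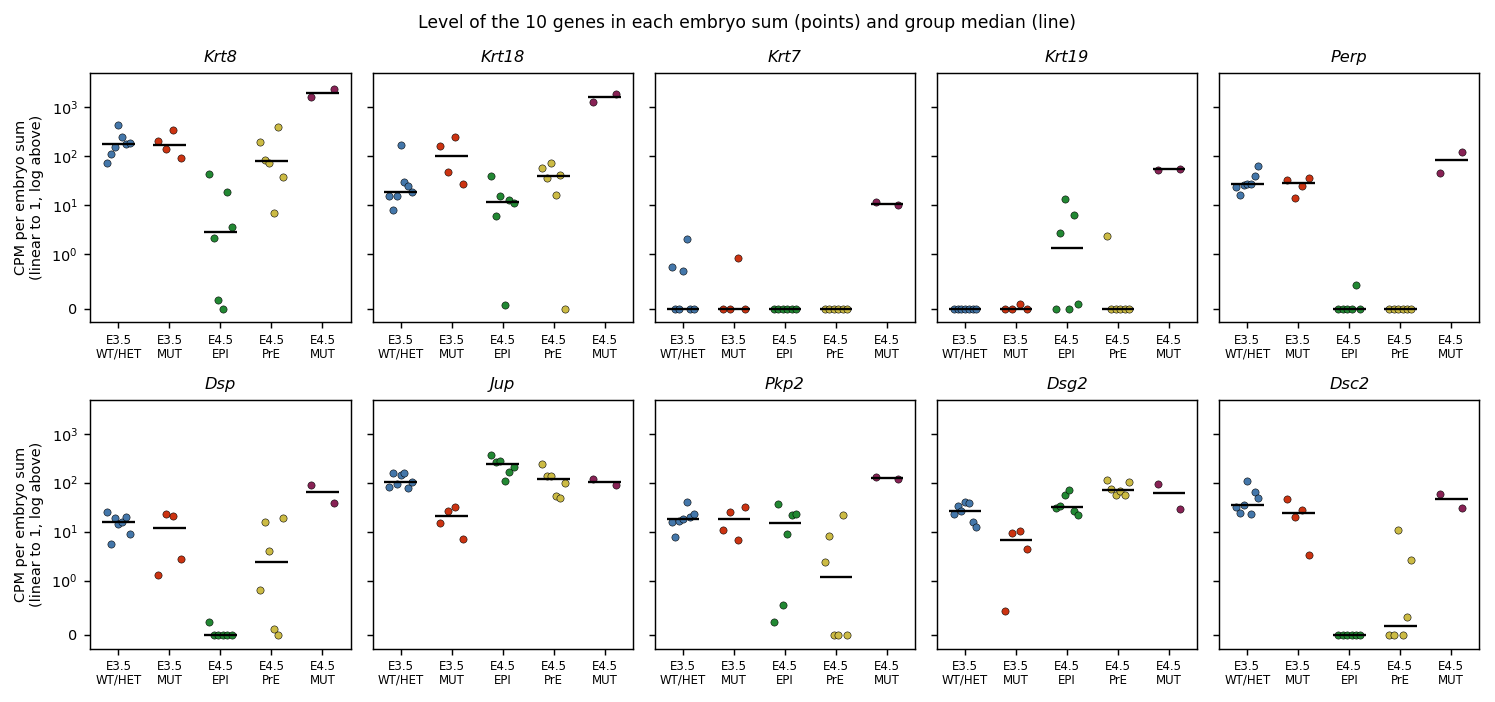
Level of each of the 10 genes (CPM, linear to 1 and logarithmic above) in the 25 embryo sums of the 5 groups, with 1 point per sum and a line at the group median. The 2 E4.5 MUT embryos lie above all EPI and PrE sums for 8 genes and overlap both for Jup and Dsg2, and the 4 E3.5 MUT embryos lie below all E3.5 WT/HET embryos for Jup and Dsg2.

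Jup and Dsg2 were the desmosome genes that were low in E3.5 MUT embryos. Jup was 79.0 to 159 CPM in E3.5 WT/HET (median 105, n = 7) and 15.2, 27.0, 31.2 and 7.18 CPM in the 4 MUT embryos. Every MUT embryo lay below every WT/HET embryo. Jup fell by 2.51 on the log2 scale (SE 0.39, edgeR adjusted p = 0.00393) and passed in all 11 fits that left out 1 embryo and in all 6 other settings tried. It was the only member called of the 8 that were tested in this comparison, where 6.18% of all tested genes were called and 2.98% were called lower.

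Dsg2, a desmosomal cadherin, was 12.6 to 39.8 CPM in E3.5 WT/HET (median 25.9) and 0.434, 9.30, 10.3 and 4.36 CPM in MUT. Here too every MUT embryo lay below every WT/HET embryo, which held for 4.02% of the tested genes. The log2 fold change of -2.08 (SE 0.63) missed the threshold in edgeR (adjusted p = 0.0669), while DESeq2 and limma-trend called it. The other 4 tested members differed by less than the spread between embryos, with log2 fold changes of -0.35 (SE 0.68) for Dsp, -0.07 (SE 0.48) for Pkp2, -0.95 (SE 0.59) for Dsc2 and -0.22 (SE 0.38) for Perp and edgeR adjusted p from 0.393 to 0.962.

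At E4.5 Jup and Dsg2 in MUT embryos overlapped the EPI sums and the PrE sums. Jup was 120 and 91.8 CPM in MUT, 108 to 372 CPM in EPI (median 236) and 49.5 to 239 CPM in PrE (median 117.8). Dsg2 was 93.6 and 28.4 CPM in MUT, 22.3 to 70.2 CPM in EPI (median 32.003) and 55.3 to 114 CPM in PrE (median 71.5). Jup of embryo 8 lay below every EPI sum, and Dsg2 lay above every EPI sum in embryo 3 and below every PrE sum in embryo 8. Neither gene passed against EPI (edgeR adjusted p = 0.173 for Jup and 0.686 for Dsg2) or PrE (0.949 and 0.842). The log2 fold change of Jup against EPI was -1.16 (SE 0.43) and -1.36 to -0.97 with 1 embryo left out, and limma-trend called it lower (adjusted p = 0.00741). Dsg2 differed between the 2 MUT embryos by more than its MUT mean differed from either control mean.

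Dsp, Dsc2 and Perp were present at E3.5 in both genotypes, close to or at 0 in the E4.5 EPI, and present in E4.5 MUT. Dsp was 5.52 to 25.3 CPM in E3.5 WT/HET (median 15.4) and 1.301, 22.9, 20.8 and 2.81 CPM in E3.5 MUT. At E4.5 it was 90.0 and 39.3 CPM in MUT, 0 to 19.4 CPM in PrE (median 2.45), and in EPI 1 count in 1 embryo. It rose against EPI (log2 fold change 8.36, SE 1.47, edgeR adjusted p = 0.00187) and did not pass against PrE (3.24, SE 1.55, edgeR adjusted p = 0.338). The ratio of summed counts to EPI was 4258, with a 95% counting interval from 763 to 168260.

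Dsc2, the second cadherin, was 22.8 to 107 CPM in E3.5 WT/HET (median 35.5) and 45.6, 20.4, 27.1 and 3.38 CPM in E3.5 MUT. At E4.5 it was 59.8 and 31.1 CPM in MUT, 0 to 10.6 CPM in PrE and 0 counts in all 6 EPI sums. It was thereby at least 986-fold higher in MUT than in EPI by summed counts with the floor of 3 counts, and passed the test (edgeR adjusted p = 0.0225). Against PrE the log2 fold change of 4.23 (SE 1.999) did not pass (edgeR adjusted p = 0.322).

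Perp was 15.99 to 63.5 CPM in E3.5 WT/HET (median 26.8) and 33.4, 13.9, 24.7 and 35.9 CPM in E3.5 MUT. At E4.5 it was 46.5 and 124 CPM in MUT, whereas the EPI sums held 6 counts in 1 embryo and the PrE sums none. Perp rose against EPI (log2 fold change 8.42, SE 1.47, edgeR adjusted p = 0.00493) and against PrE, where it was at least 1319-fold higher by summed counts (edgeR adjusted p = 0.0146). The remaining plaque gene Pkp2 was 129 and 121 CPM in E4.5 MUT, 0.240 to 36.9 CPM in EPI (median 15.3) and 0 to 21.5 CPM in PrE (median 1.18). Both MUT embryos lay above all controls, but the log2 fold changes of 2.99 (SE 1.20) and 4.56 (SE 1.79) did not pass (edgeR adjusted p = 0.205 and 0.224).

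In all, 5 of the 10 members passed against EPI, all higher (Dsp, Perp, Krt18, Dsc2 and Krt8), where 4.92% of the tested genes were called and 2.3% were called higher. Against PrE 2 of 10 passed, both higher (Perp and Krt18), where 3.81% of the tested genes were called and 1.74% were called higher. Dsp (1 count), Perp (6), Dsc2 (0) and Krt7 (0) in EPI passed the filter only through the MUT sums. The same held for Perp (0) and Krt7 (0) in PrE. These genes could only come out higher, so their direction is no result of the test. The median log2 fold change of the 10 was 6.42 against EPI and 4.40 against PrE, beside -0.03 and 0.05 over all tested genes. Where the control group held 0 counts, the fold change depends on the prior count. The same 8 members lay above every EPI sum and above every PrE sum in both MUT embryos, which 14.7% and 14.2% of the tested genes did. The comparisons share the 2 MUT embryos. With 1 MUT embryo left out, 2 members passed against EPI and 0 against PrE, in fits whose spread comes from the controls alone and assumes that the lone MUT embryo varies as they do. With the 2 WT embryos as the only controls no member passed in either (edgeR, with 7 and 6 members at an unadjusted p under 0.05). Krt18 against EPI was the only call that held with each of the 8 embryos left out in turn. Against EPI, Dsp was lost without embryo 3, Perp without 8, Dsc2 without 3 or 8 and Krt8 without 2, 3, 7 or 8. Their log2 fold changes in the 8 fits were 7.53 to 8.83 for Dsp, 7.58 to 8.99 for Perp, 7.45 to 8.48 for Dsc2 and 7.22 to 8.57 for Krt8. Against PrE, Perp was lost without 3 or 8 and Krt18 without 2, 3, 5 or 8, with log2 fold changes of 7.84 to 9.19 and 5.14 to 5.73.

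Between EPI and PrE of the same 6 embryos, none of the 5 members that could be tested passed (edgeR, 9.81% of the tested genes called, 3 of the 5 members at an unadjusted p under 0.05). With embryo as a replicate block, Krt8 was lower in EPI (log2 fold change -4.52, edgeR adjusted p = 0.0145) and Jup was higher (1.07, edgeR adjusted p = 0.00807). DESeq2 and limma-trend called 3 members each.

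**Figure D2:**
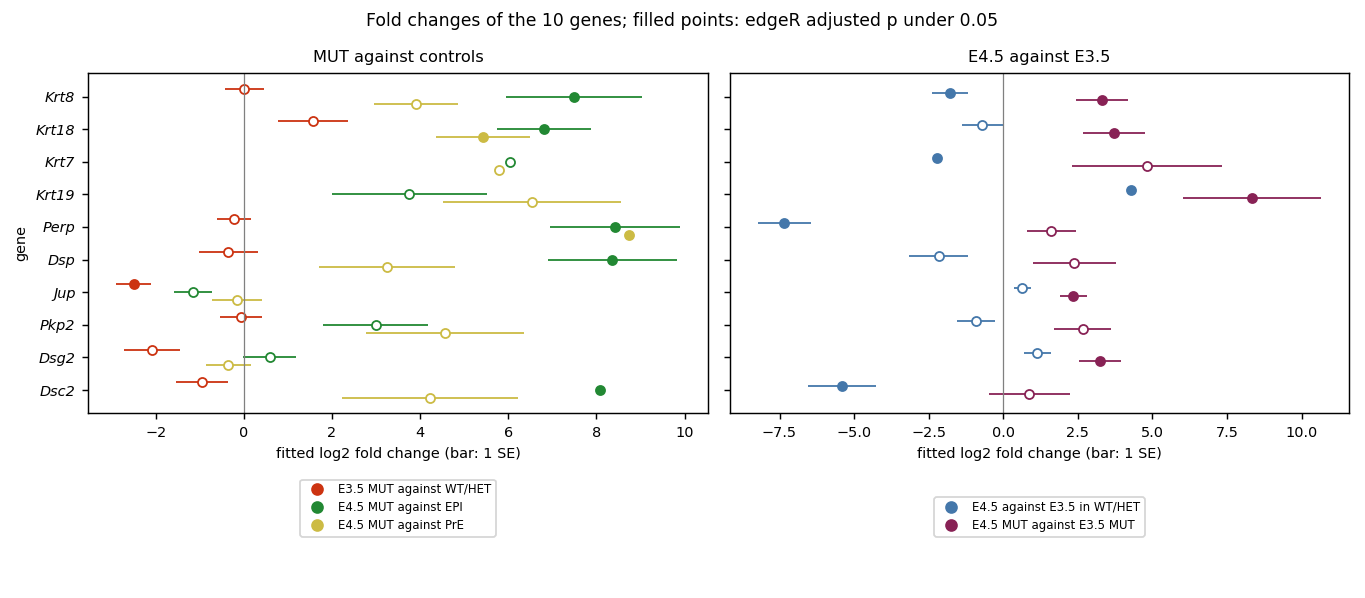
Fitted log2 fold changes of the 10 genes with a bar of 1 SE, on the left for MUT against its controls and on the right for E4.5 against E3.5. Filled points passed the edgeR threshold, points with no bar belong to comparisons in which 1 group had 0 counts, and Krt7 and Krt19 were below the filter at E3.5. In the right panel Krt7, Krt8, Krt18, Dsp, Pkp2, Dsc2 and Perp lie below 0 in WT/HET and above 0 in MUT, and of these only Krt8 passed in both.

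The timing was compared in one fit of the whole ICM sums of all 19 embryos. From E3.5 to E4.5 the keratins Krt8, Krt18 and Krt19 and the junction genes Jup and Dsg2 rose in MUT embryos, while Perp, Dsc2, Krt8 and Krt7 fell and Krt19 rose in WT/HET embryos. In MUT, 5 of 10 members passed, all higher, with 16.1% of the tested genes called and 7.9% called higher. Of these, Krt19 had 1 count in the E3.5 MUT embryos and passed the filter only through E4.5 sums. It could only come out higher, so its direction is no result of the test. The log2 changes were 3.30 (SE 0.87) for Krt8, 3.70 (SE 1.04) for Krt18, 8.35 (SE 2.31) for Krt19, 2.34 (SE 0.45) for Jup and 3.24 (SE 0.70) for Dsg2, with edgeR adjusted p from 0.00144 to 0.0187. Pkp2, at 2.67 (SE 0.95), and Dsp, at 2.39 (SE 1.38), did not pass (edgeR adjusted p = 0.0624 and 0.244), nor did Perp, Dsc2 and Krt7. Krt8 and Krt18 no longer passed without MUT embryo 8, and Dsg2 without MUT embryo 3.

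In WT/HET, 4 members fell and 1 rose, with 29.9% of the tested genes called, 15.4% lower and 14.5% higher. The log2 changes were -7.34 (SE 0.88) for Perp, -5.40 (SE 1.14) for Dsc2 and -1.79 (SE 0.60) for Krt8 (edgeR adjusted p = 3.88e-07, 0.00109 and 0.0316). Krt7 went from 45 counts to 0 and passed (edgeR adjusted p = 0.0280), and Krt19 went from 0 counts to 281 in EPI and 17 in PrE and passed (0.00209). Here too Krt19 passed the filter only through E4.5 sums, so its direction is no result of the test. Krt18 had a log2 change of -0.71 (SE 0.69, edgeR adjusted p = 0.476), which was 0.40 without HET embryo 15. Krt8 no longer passed without embryo 15, 2, 4 or 7, while the other 4 calls held with each of the 19 embryos left out. The 45 counts of Krt7 came from 3 of 58 cells. Krt7 was not called by limma-trend, and neither Krt7 nor Krt8 passed with WT embryos as the only controls.

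The difference between the 2 stage changes, tested as an interaction, was higher in MUT for 5 of 10 members, where 5.46% of the tested genes were called and 2.71% were called higher. These were Perp (log2 difference 8.95, SE 1.23, edgeR adjusted p = 3.43e-05), Krt8 (5.10, SE 1.06, 0.00810), Dsc2 (6.28, SE 1.71, 0.0317), Krt18 (4.41, SE 1.24, 0.0416) and Krt7 (edgeR adjusted p = 0.0462). Perp and Krt8 passed with each of the 19 embryos left out in turn, and Dsc2 in 14, Krt18 in 8 and Krt7 in 7 of these 19 fits. The number of members called in them was 2 to 6.

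Single cells were scored as carrying a gene from 10 CPM, the keratin pair as Krt8 with Krt18, and the desmosome set as Dsp with a cadherin (Dsg2 or Dsc2) and an armadillo protein (Jup or Pkp2). At E3.5, Krt8 was carried by 58 of 58 WT/HET and 29 of 29 MUT cells. Krt18, and with it the pair, was carried by 34 of 58 WT/HET cells (58.6%, exact binomial 95% interval 44.9 to 71.4%) and 24 of 29 MUT cells (82.8%, 64.2 to 94.2%). At E4.5 the pair was carried by 4 of 37 EPI cells, 10 of 29 PrE cells and 17 of 19 MUT cells (89.5%, 66.9 to 98.7%). These intervals cover counting error only, since cells of an embryo are not independent.

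By embryo, the share of cells with the pair averaged 83.8% in E3.5 MUT and 61.5% in E3.5 WT/HET, a difference of 22.2 points (exact two-sided permutation test over 330 splits of embryos, p = 0.121, adjusted over 13 quantities 0.263). At E4.5 it averaged 90.9% in MUT, 13.7% in EPI and 35.5% in PrE. The E4.5 comparisons of 2 against 6 embryos cannot go below p = 0.0714 in this test, and the pair gave that value in both.

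The shares of cells with Jup and Dsg2 differed at E3.5. Jup was carried by 57 of 58 WT/HET and 18 of 29 MUT cells, with embryo means of 98.0% and 60.0%, and Dsg2 by 41 of 58 and 6 of 29 cells, with means of 69.5% and 15.0%. Both differences had p = 0.00606, the smallest the exact permutation test can give here, and adjusted p = 0.0394 over the 13 quantities. With 1 embryo left out the differences were -44.6 to -34.6 points for Jup and -59.5 to -49.5 points for Dsg2. With these 2 quantities at its smallest p, the exact test on the embryos that remain cannot pass after adjustment. Dsc2 (67.3% and 46.3%), Dsp (38.4% and 25%), Pkp2 (59.0% and 55.0%) and Perp (68.7% and 67.5%) did not pass in the same exact test (adjusted p from 0.263 to 1).

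At E4.5, Perp was carried by 0 of 37 EPI cells, 0 of 29 PrE cells and 12 of 19 MUT cells. Dsp was carried by 0 EPI, 8 PrE and 13 MUT cells, Dsc2 by 0, 2 and 7, Pkp2 by 11, 3 and 15, Krt19 by 4, 1 and 8, and Krt7 by 0, 0 and 4. With a floor of 3 cells, a count of 0 allows a share of up to 8.11% of 37 EPI cells and 10.3% of 29 PrE cells, and the exact binomial 95% intervals reach 9.49% and 11.9%. Both cover counting error only, as if cells were independent. Jup was carried by 36 EPI, 25 PrE and 12 MUT cells, the only member with a smaller share in MUT than in both controls.

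Keratin pair and desmosome set were, at 10 CPM, found in the same cells most often in E4.5 MUT. There 9 of 19 cells carried both, 8 the pair alone, none the set alone and 2 neither. Embryo 3 gave 6 of 11 and embryo 8 gave 3 of 8 cells with both. All 9 cells with the desmosome set therefore carried the pair, in a group where 17 of 19 cells did. In E3.5 WT/HET 12 of 58 cells carried both, 22 the pair alone, 6 the set alone and 18 neither, and 6 of the 7 embryos had at least 1 cell with both. In E3.5 MUT 5 of 29 cells carried both, 19 the pair alone, 1 the set alone and 4 neither, and all 5 came from embryos 12 and 17. In PrE 2 of 29 cells, both from embryo 2, carried both, 8 the pair alone and 5 the set alone. In EPI none of 37 cells carried the set.

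The counts of cells with both depended on the level required. At 1 count or more, 26 E3.5 WT/HET, 12 E3.5 MUT, 5 PrE and 9 E4.5 MUT cells carried both, and from 50 CPM 2 E3.5 WT/HET and 5 E4.5 MUT cells did. With every cell thinned to 500000 counts and scored from 10 CPM, the numbers were 14, 5, 2 and 9, with 2 WT/HET and 1 MUT cell of E3.5 left out as too shallow. EPI had 0 in each.

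By embryo the share of cells with both averaged 12.5% in E3.5 MUT and 22.4% in E3.5 WT/HET (exact permutation test, p = 0.303, adjusted 0.532), and that of the desmosome set 15.0% and 31.9% (p = 0.0848, adjusted 0.263). At E4.5 the share with both was 46.0% in MUT, 0% in EPI and 4.76% in PrE, with p = 0.0714 in both exact tests, the lowest possible. The share with the set was 46.0% in MUT and 20.5% in PrE (exact permutation p = 0.357).

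**Figure D3:**
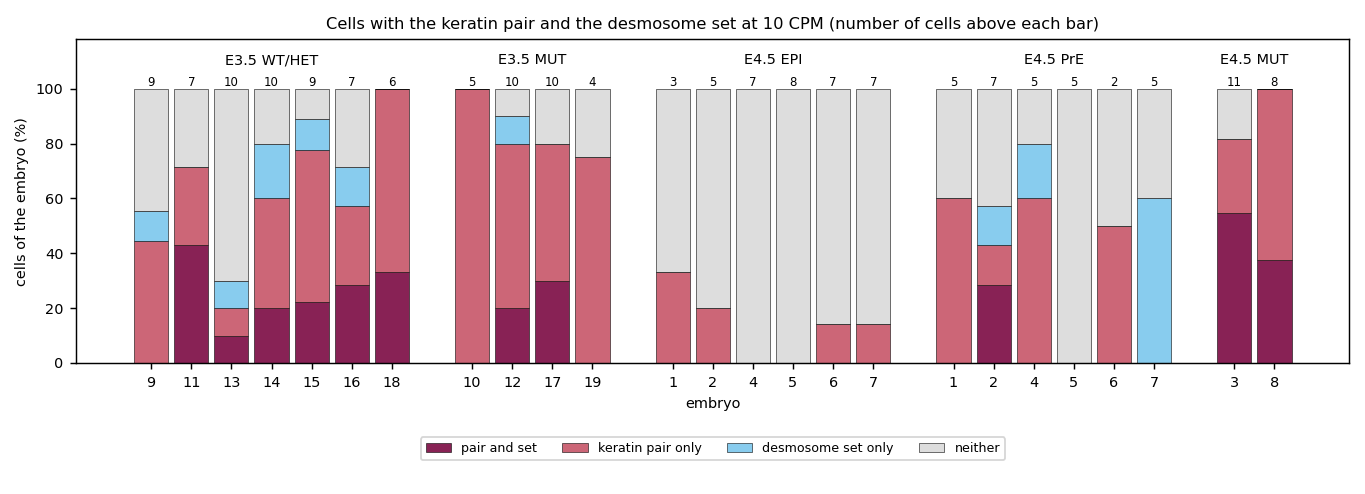
Percent of the cells of each embryo that carried the keratin pair and the desmosome set, the pair only, the set only or neither at 10 CPM, with the number of cells above each bar and the embryo number below. Cells with both make up 6 of 11 and 3 of 8 cells in the E4.5 MUT embryos and are absent from the EPI of all 6 embryos.

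The 19 E4.5 MUT cells varied widely. Krt8 ran from 0 to 7308 CPM (median 914) and Krt18 from 0 to 6064 CPM (median 693). The 2 cells with the highest Krt8, 7308 and 7091 CPM, also had the highest Krt18, 6064 and 4703 CPM, came from embryo 8 and lacked Dsp. One cell of embryo 3 had 0 counts of Krt8 and Krt18 and carried Pkp2 alone, at 82.3 CPM, with TE markers at 4273 CPM in sum, within the range of the group. Another cell of embryo 3 had 858 CPM of Krt8 and no Krt18, and its Krt19 was 282 CPM. The median cell carried 7 of the 10 members in E4.5 MUT, 6 in E3.5 WT/HET, 4 in E3.5 MUT, 3 in PrE and 2 in EPI.

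Among the 17 E4.5 MUT cells with the keratin pair, 15 carried Dsg2, 14 Pkp2, 12 Dsp, 12 Jup, 11 Perp and 7 Dsc2. Among the 34 E3.5 WT/HET cells with the pair, 33 carried Jup, 24 Perp, 23 Dsc2, 21 Dsg2, 21 Pkp2 and 15 Dsp. Among the 24 E3.5 MUT cells with the pair, 16 carried Perp, 15 Jup, 13 Dsc2, 12 Pkp2, 9 Dsp and 4 Dsg2. The least frequent of the genes listed was thus Dsc2 in E4.5 MUT, Dsp in E3.5 WT/HET and Dsg2 in E3.5 MUT. Cells without the pair carried these genes as well. Of the 24 such cells in E3.5 WT/HET, 24 carried Jup, 20 Dsg2, 16 Dsc2, 16 Perp, 13 Pkp2 and 7 Dsp. Only 5 E3.5 MUT and 2 E4.5 MUT cells lacked the pair, too few to compare. Whether any of these genes went with the pair was not tested.

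Across cells of a group, log2(CPM + 1) of Krt8 and Krt18 had a Pearson r of 0.36 in E3.5 WT/HET (58 cells), 0.59 in E3.5 MUT (29), 0.65 in EPI (37), 0.35 in PrE (29) and 0.75 in E4.5 MUT (19). The mean of the pair and the mean of the 5 desmosome genes had r of 0.20, 0.35, 0.04, 0.24 and 0.67 in the same order. Without the E4.5 MUT cell that had no Krt8 and no Krt18, the E4.5 MUT values were 0.65 and 0.51 over 18 cells. Cells share embryos and depth, so these values are descriptions. Between Krt18 and the single desmosome genes in E4.5 MUT, r was 0.50 for Dsc2, 0.40 for Jup, 0.31 for Pkp2, 0.18 for Dsg2 and 0.08 for Dsp.

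**Figure D4:**
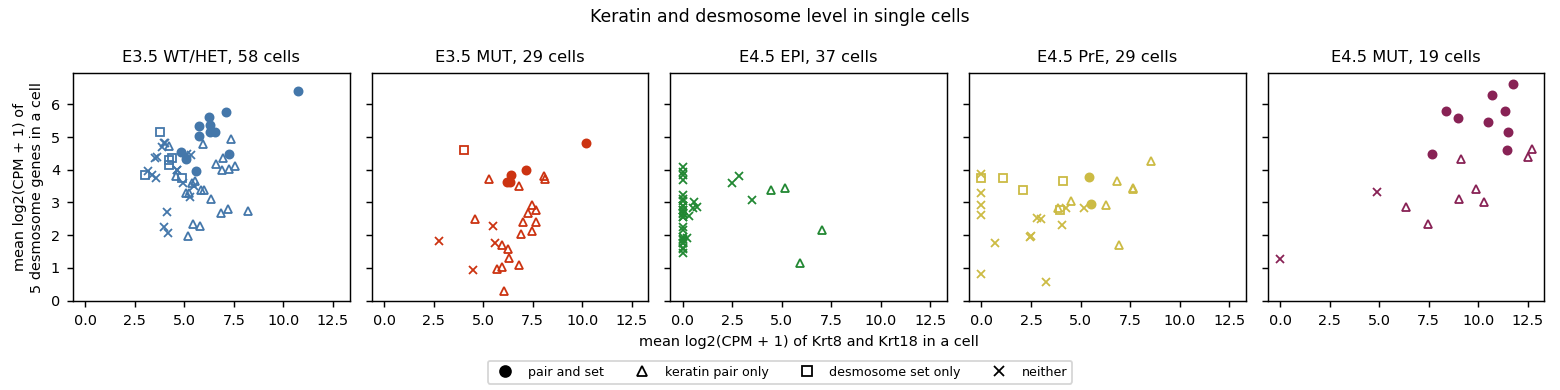
Mean log2(CPM + 1) of Krt8 and Krt18 (horizontal) against that of Dsp, Jup, Pkp2, Dsg2 and Dsc2 (vertical) in each single cell, in 1 panel per group, with the symbol showing which sets the cell carried at 10 CPM. The E4.5 MUT cells reach the highest values on the horizontal axis, and the 4 EPI cells with the pair carry no desmosome set.

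Other genes of the same structures were taken from fixed lists. Of 20 other keratins, 1 could be tested at E3.5, 2 against EPI and 4 against PrE, and edgeR called none, with 0 at an unadjusted p under 0.05. DESeq2, which kept 4 of them in each comparison, called 1 against EPI and 1 against PrE. Of 12 other desmosome genes 4 could be tested in each of these comparisons, and edgeR, DESeq2 and limma-trend called none, with 0 at an unadjusted p under 0.05 in edgeR. Of 11 adherens junction genes 11, 10 and 10 were tested and edgeR called none, with 3, 0 and 0 at an unadjusted p under 0.05 and 2 called by DESeq2 at E3.5, and their median log2 fold changes were -0.25, -0.08 and 0.38. Of 9 other intermediate filament genes 5, 5 and 4 were tested and edgeR called none, with 1, 2 and 1 at an unadjusted p under 0.05, while DESeq2 called 1 in each. Of 8 genes that link or organise keratins edgeR called none in the 3 MUT comparisons either, with 0 at an unadjusted p under 0.05, while limma-trend called 1 at E3.5. Between stages Plec (plectin) rose in MUT (log2 change 3.25, SE 0.93, edgeR adjusted p = 0.0209) and Dst (dystonin) rose in MUT and in WT/HET (1.504, SE 0.49, edgeR adjusted p = 0.0402 and 1.36, SE 0.33, 0.00397).

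Of 7 hemidesmosome genes, Itga6, an integrin chain that binds laminin, was higher in MUT at E3.5 (52.8 to 84.99 against 24.8 to 52.5 CPM, log2 fold change 0.96, SE 0.24, edgeR adjusted p = 0.0330) and against EPI at E4.5 (105 and 156 against 12.4 to 39.5 CPM, 2.60, SE 0.48, edgeR adjusted p = 0.0155). Of 11 epithelial transcription factors, Ovol1 was higher in MUT at E3.5 (14.1 to 25.2 against 1.38 to 5.71 CPM, log2 fold change 2.43, SE 0.44, edgeR adjusted p = 0.00694) and Elf3 against EPI at E4.5 (597 and 704 against 7.78 to 125 CPM, 2.89, SE 0.64, edgeR adjusted p = 0.0328). These 2 were the only factors of the list called in the 3 MUT comparisons. With 1 embryo left out in turn, Ovol1 passed in 11 of 11 fits, Itga6 in 4 of 11 at E3.5 and 6 of 8 against EPI, and Elf3 in 2 of 8.

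Of the TE markers, edgeR called higher 4 of 11 tested at E3.5, 6 of 12 against EPI and 4 of 13 against PrE, and it called none lower. Over all tested genes, 6.18%, 4.92% and 3.81% were called in these comparisons in either direction. At E3.5, 2.98% were called lower and the rest of the 6.18% higher. Called higher against EPI and PrE were 2.3% and 1.74%, and the rest of the 4.92% and 3.81% were called lower. At E3.5 Hand1 (log2 fold change 3.65, SE 0.62), Fabp3 (3.35, SE 0.58) and Gata3 (4.06, SE 0.73) had edgeR adjusted p from 0.00561 to 0.00694. The median log2 fold change of the 11 tested was 1.33. Cdx2 (0 to 4.36 CPM) and Tfap2c (53.9 to 105 CPM) in E3.5 MUT overlapped E3.5 WT/HET (0 to 6.49 and 54.4 to 153 CPM). At E4.5 Dppa1 rose by a log2 fold change of 11.73 (SE 0.67) against EPI and 11.40 (SE 0.83) against PrE (edgeR adjusted p = 8.52e-06 and 8.38e-05). Its mean was 0.040 CPM in EPI and 0.125 CPM in PrE, so Dppa1 passed the filter only through the MUT sums. It could only come out higher, and its direction is no result of the test. Of the EPI markers 5 of 9 fell at E3.5 and 4 of 9 fell against EPI, and against PrE 3 of 8 fell and 1 rose. Of the PrE markers 3 of 10 rose at E3.5, 3 of 12 rose against EPI and 7 of 13 fell against PrE.

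Among 7810 genes with a mean of at least 10 CPM that are no members, those whose log2 CPM followed the mean of Krt8 and Krt18 most closely over the 25 sums were Grtp1 (Pearson r 0.87), Cd9 (0.83), Uap1l1 (0.81), Klhdc2 (0.81) and Cd63 (0.79). Cd9 and Cd63, both tetraspanins, averaged 1762 and 4810 CPM in E4.5 MUT against 398 and 557 CPM in EPI. Those closest to the mean of Dsp, Jup, Pkp2, Dsg2 and Dsc2 were BC053393 (0.83), Slc24a5 (0.81), Psap (0.79), Dppa1 (0.79) and Prr13 (0.77). Dppa1 averaged 723 CPM in E4.5 MUT, 60.3 CPM in E3.5 MUT, 26.2 CPM in E3.5 WT/HET and under 1 CPM in EPI and PrE. The sums fall into the 5 groups, so that these correlations are descriptions over 25 sums and carry no test.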

How the data were processed

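Single ICM cells were sequenced with Smart-seq2 as 125-bp paired reads. The authors aligned reads with STAR to GRCm38/mm10 and deposited raw gene counts per cell from htseq-count with Ensembl annotation. The strand setting is not given in the sources used here. Over all cells 32.3% of reads were multimapped, 8.65% ambiguous and 4.72% in no feature, and these rows were left out. The multimapped share differed by stage. Its median over cells was 38.8% in E3.5 WT/HET, 41.1% in E3.5 MUT, 24.9% in EPI, 19.7% in PrE and 22.0% in E4.5 MUT. The part of this in the differences between stages was not tested. Groups came from the labels. Embryo numbers came from the sample sheet of the study, and samples are counts summed per embryo.

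Counts were tested with edgeR 4.0.16 (quasi-likelihood F test, TMM, filterByExpr, prior count 2) and adjusted by Benjamini-Hochberg over all tested genes, with a threshold of 0.05. DESeq2 1.42.0 and limma 3.58.1 were alternatives, beside DESeq2 size factors, no filter, dropping 9 cells below 0.5 of the median depth, WT embryos as the only controls, and leaving out each embryo. Shares of cells were tested by exact two-sided permutation over embryos, again at 1 count, at 50 CPM and after thinning to 500000 counts, which left out 3 cells. EPI and PrE sums of an embryo come from the same animal, so embryo was also fitted as a replicate block. Their deviations from the group means correlated at 0.00894 to 0.0661. Names and positions came from GENCODE. The scripts were tested on simulated data. No 2 cells correlated above 0.919. The sources do not tie the embryos to litters, so embryos that were treated as independent may share a mother. The spread between them may also be partly technical. Cell counts and binomial intervals cover counting error only.

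Named were all members, called genes of the 11 lists (at most 3 per list and comparison, by adjusted p), and the 5 genes most like each profile. A further called gene of the lists is not reported here. The members and lists were chosen with earlier results of these data known.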

Additional observations from a re-analysis of the deposited data

Results flagged for a closer look

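In 8 of 35 groups of 4 to 10 sums, 1 embryo stood apart from the others by Dixon's test, and chance gives about 1 in 20 groups. In 7 of the 8, the other sums were at or near 0. These were Krt7 at 2.08 CPM in E3.5 WT/HET embryo 16 and 0.940 CPM in E3.5 MUT embryo 17, Krt19 at 0.0854 CPM in E3.5 MUT embryo 17 and 2.35 CPM in the PrE of embryo 1, Dsp at 0.240 CPM in the EPI of embryo 1, Dsc2 at 10.6 CPM in the PrE of embryo 4 and Perp at 0.431 CPM in the EPI of embryo 6. The last was Krt18 at 173 CPM in E3.5 HET embryo 15, where 1 cell with the highest TE marker sum of its group held 73.3% of the counts.

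The change from E3.5 to E4.5 differed between MUT and WT/HET in the interaction test for 5 members, by a log2 difference of 7.02 for Krt7, 5.10 for Krt8, 4.41 for Krt18, 6.28 for Dsc2 and 8.95 for Perp. The value of Krt7 depends on the prior count, since all E4.5 WT/HET sums were at 0. Stage and plate cannot be told apart within a genotype, and the 2 genotypes shared each plate.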

How the results depend on the processing

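The number of members called at E3.5 was 1 and became 2 with DESeq2, limma-trend or WT controls only (1 to 2 without 1 embryo). Against EPI it was 5, with 9 in limma-trend (8 higher, 1 lower), 0 with WT controls only and 2 to 5 without 1 embryo. Against PrE it was 2, with 5 in DESeq2, 7 in limma-trend, 0 with WT controls only and 0 to 3 without 1 embryo. Between EPI and PrE it was 0, with 3 in DESeq2, 3 in limma-trend and 2 with the replicate block (0 to 0 without 1 embryo). The block changed no other call of a member. The stage change gave 3 to 6 in MUT and 4 to 6 in WT/HET without 1 embryo. The interaction gave 5, with 8 in DESeq2, 9 in limma-trend, 3 without shallow cells, 3 with WT controls only and 2 to 6 without 1 embryo. The cause was not tested, except that WT controls only leave fewer embryos.

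Several values changed sign. At E3.5 Krt8 was -0.015 with DESeq2, -0.010 with its size factors and -0.0018 with no filter, and -0.44 to 0.31 without 1 embryo. Without 1 embryo Dsp was -0.85 to 0.0027, Pkp2 -0.46 to 0.21 (0.22 with WT controls) and Perp -0.40 to 0.035. Dsg2 was -0.51 to 1.22 against EPI and -1.39 to 0.27 against PrE, Jup against PrE -0.32 to 0.17 (1.01 with WT controls), and the stage change of Krt18 in WT/HET -1.05 to 0.40. In limma-trend the stage change of Dst in MUT was -0.052, and the interaction was 0.37 for Pou5f1 and -2.12 for Hand1. Shares at E3.5 changed sign for Krt7 (1.83 points at 1 count), Dsp (2.26 at 1 count, 1.49 at 50 CPM) and Pkp2 (1.33 thinned, -19.0 to 7.64 without 1 embryo), and Perp was -12.0 to 4.65. With 2 MUT embryos at E4.5, cell shares could not reach 0.05.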
